A study of Mus musculus with 12 samples.

Results

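The mitochondrial ribosomal protein genes were taken as the protein-coding rows of the count table whose symbols start with Mrpl or Mrps followed by a digit. They numbered 78 of the 54447 rows, 49 named for the large subunit (Mrpl) and 29 for the small subunit (Mrps). With a mean of at least 1 count per 1000000 counts of a library (CPM), 77 were described further, 48 large and 29 small. The remaining gene, Mrpl53, averaged 0.048 CPM, and neighbouring genes cover 88.0% of its exon bases, chiefly Gm42688 on the same strand. RNA was sequenced from NIH3T3 cells, a mouse embryo fibroblast line that the labels describe as mouse embryonic fibroblasts, kept under normoxia. One population carried N-VEGF, the N-terminal part of a long VEGF protein, and the other NLS-N-VEGF, the same protein behind the nuclear localization sequence of Cas9. Both were integrated by lentivirus under a Tet-on promoter together with the Tet activator, selected with puromycin, and grown without or with doxycycline (dox). Each of the 4 groups had 3 libraries, and all 12 came from cells with an integrated vector. Dox brought the drug and the induced protein together in both populations, so within a population their effects cannot be told apart.

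Mitochondrial ribosomes sit in the matrix and translate the few messenger RNAs of the mitochondrial genome, which encode core subunits of the respiratory chain and of ATP synthase. Their RNAs come from that genome, whereas all of their proteins are encoded in the nucleus, made in the cytosol and imported. Tetracyclines such as dox bind bacterial ribosomes at the decoding site of the small subunit and also slow mitochondrial translation, so a dox-inducible promoter exposes these genes' products to a known inhibitor. The comparisons below ask whether the transcripts for the ribosomal proteins differed with dox in either population, and whether those of the large and the small subunit differed alike.

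The genes lie on 17 chromosomes, with 11 on chromosome 11, 8 on chromosome 17 and 7 on chromosome 6. A protein-coding gene that starts on the opposite strand close to the start was found for 23 of the 78, or 29.5%. Close meant from 200 bases of overlap to a gap of 1000 bases. The share was 7.9% of 21951 protein-coding genes, counted whether expressed here or not, and the share among expressed genes was not taken. RefSeq promoters of build GRCm38.p6, from 250 bases before to 50 bases after the start of a gene, were present for 69 of the 78. Short cores bound by regulators of nuclear genes for mitochondria were searched on both strands. The core of NRF1 (GCGCATGC or GCATGCGC), an activator of respiratory genes, was in the promoters of 8 of these 69 (11.6%), against 3.05% of all 27025 genes with a promoter and 6.03% of the 9870 whose expression was tested. The core of ETS factors such as GABP (CCGGAAG or CTTCCGG) was in 26 (37.7%), against 9.93% and 20.2%. The core of YY1 (ATGGCGGC or GCCGCCAT) was in 12 (17.4%), against 2.60% and 5.80%. The forms of the NRF1 core on the 2 strands overlap in a palindrome, as in front of Mrpl9, and a gene is counted once for each core. In all, 36 of the 69 (52.2%) held at least 1 of the 3 cores, against 14.2% and 28.9%. By subunit, the NRF1 core was in 7 of 43 large subunit genes and 1 of 26 small subunit genes, and the ETS core in 15 and 11. Each YY1 core except that of Mrps11 lay 2 to 30 bases after the RefSeq start. Such matches describe the letters and not bound sites.

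The windows below show these cores in front of genes described further on. That of Mrps11 holds the only YY1 core before a start, and it lies inside the span of Mrpl46 on the opposite strand. Each window runs 5′ to 3′ along the gene's strand, and the capitals mark the core. The number with the strand is the position of the core's first base from the start that RefSeq gives for that promoter. This start can differ from the outermost start in the GENCODE annotation, on which the gene spans given further on are based.
Mrpl51, ETS core, chr6:125192100-125192126, plus strand, -90: aggggctaaaCCGGAAGtatttgactg
Mrps18c, ETS core, chr5:100798593-100798619, plus strand, -156: ggtcacgtgaCTTCCGGcccgggaagc
Mrpl3, ETS core, chr9:105053239-105053265, plus strand, -19: gagaaacggaCCGGAAGtggcccggct
Mrps27, ETS core, chr13:99344728-99344754, plus strand, -48: ggtaggaccaCTTCCGGcggaggcggg
Mrpl10, NRF1 core, chr11:97041438-97041465, plus strand, -134: ccagctccacGCATGCGCatagcggccc
Mrps18b, NRF1 core, chr17:35916646-35916673, minus strand, -223: acggcccgacGCATGCGCactgggagca
Mrps18a, ETS core, chr17:46110968-46110994, plus strand, -26: cacccctgctCCGGAAGcggaagtgca
Mrpl34, ETS core, chr8:71464879-71464905, plus strand, -37: actacagctcCCGGAAGgccccgcggc
Mrpl27, ETS core, chr11:94653726-94653752, plus strand, -55: tccgcaagacCCGGAAGtagatctatc
Mrpl58, ETS core, chr11:115403725-115403751, plus strand, -17: tggcggaccgCCGGAAGagtgagcacc
Mrps11, YY1 core, chr7:78783011-78783038, plus strand, -110: ccctacgggcGCCGCCATctttctgtct

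Total counts per library lay between 13549331 and 18982127, so that 3 counts, taken as the smallest level the depth can show, stood for 0.158 to 0.221 CPM. The 8 fibroblast markers examined had means from 80.8 CPM (Pdgfrb) to 4338 CPM (Vim). Of the 13 markers of epithelial, endothelial, haematopoietic and muscle cells, the highest was Cd68 at 3.69 CPM, and Myod1 and Myog had no counts. Each group held libraries 1 and 2 with a label suffix that is called a here, and another library 2 with a different suffix, called b, and the labels do not state what the suffixes mean. The row of the construct insert lay between 0.288 and 0.857 CPM in libraries without dox and between 2.57 and 17.9 CPM in those with it. Within each population its level after dox was highest in the library of suffix b. Deviations from the group means followed the suffix in all groups, with a correlation across 12058 genes of 0.590 on average between libraries of the same number and suffix and of -0.605 between libraries of different suffix. N-VEGF library 1 without dox stood apart from its group, with the fewest genes detected (19976, against 20947 to 22889 in the others). Some of the results that turn on this library are given without it too. The labels do not say that libraries came from separate cultures, so the p-values measure the spread between these libraries only.

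Per kb of exon, the transcripts for large subunit proteins had a median of 17.9 CPM and those for small subunit proteins a median of 11.2 CPM, against 6.61 CPM over the 12058 genes that averaged 1 CPM or more. Of the 77 genes, 67 lay above that median. In plain CPM the median of the 77 was 37.0, against 31.6 over the 12058 genes, and 47 of the 77 lay above the latter. Their median exon length was 2533 bases, against 4255 over the genes tested. Large subunit genes ranged from 3.76 CPM per kb for Mrpl1, a protein of the mobile stalk near the exit site, to 60.9 for Mrpl28. Small subunit genes ranged from 3.41 for Mrps35 to 52.2 for Mrps21. From the lowest to the highest, levels per kb of the 77 genes spanned 17.9-fold. Exon length here counts every base of any annotated exon, whichever transcript was expressed, and was 8631 bases for Mrps35 and 739 for Mrps21. How much of the span comes from these lengths was not tested. Across the 12 libraries the median coefficient of variation was 8.87% (8.98% large, 8.11% small), against 11.9% over all genes, and Mrpl24 (28.7%) and Mrps6 (17.9%) varied most.

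**Figure D1:**
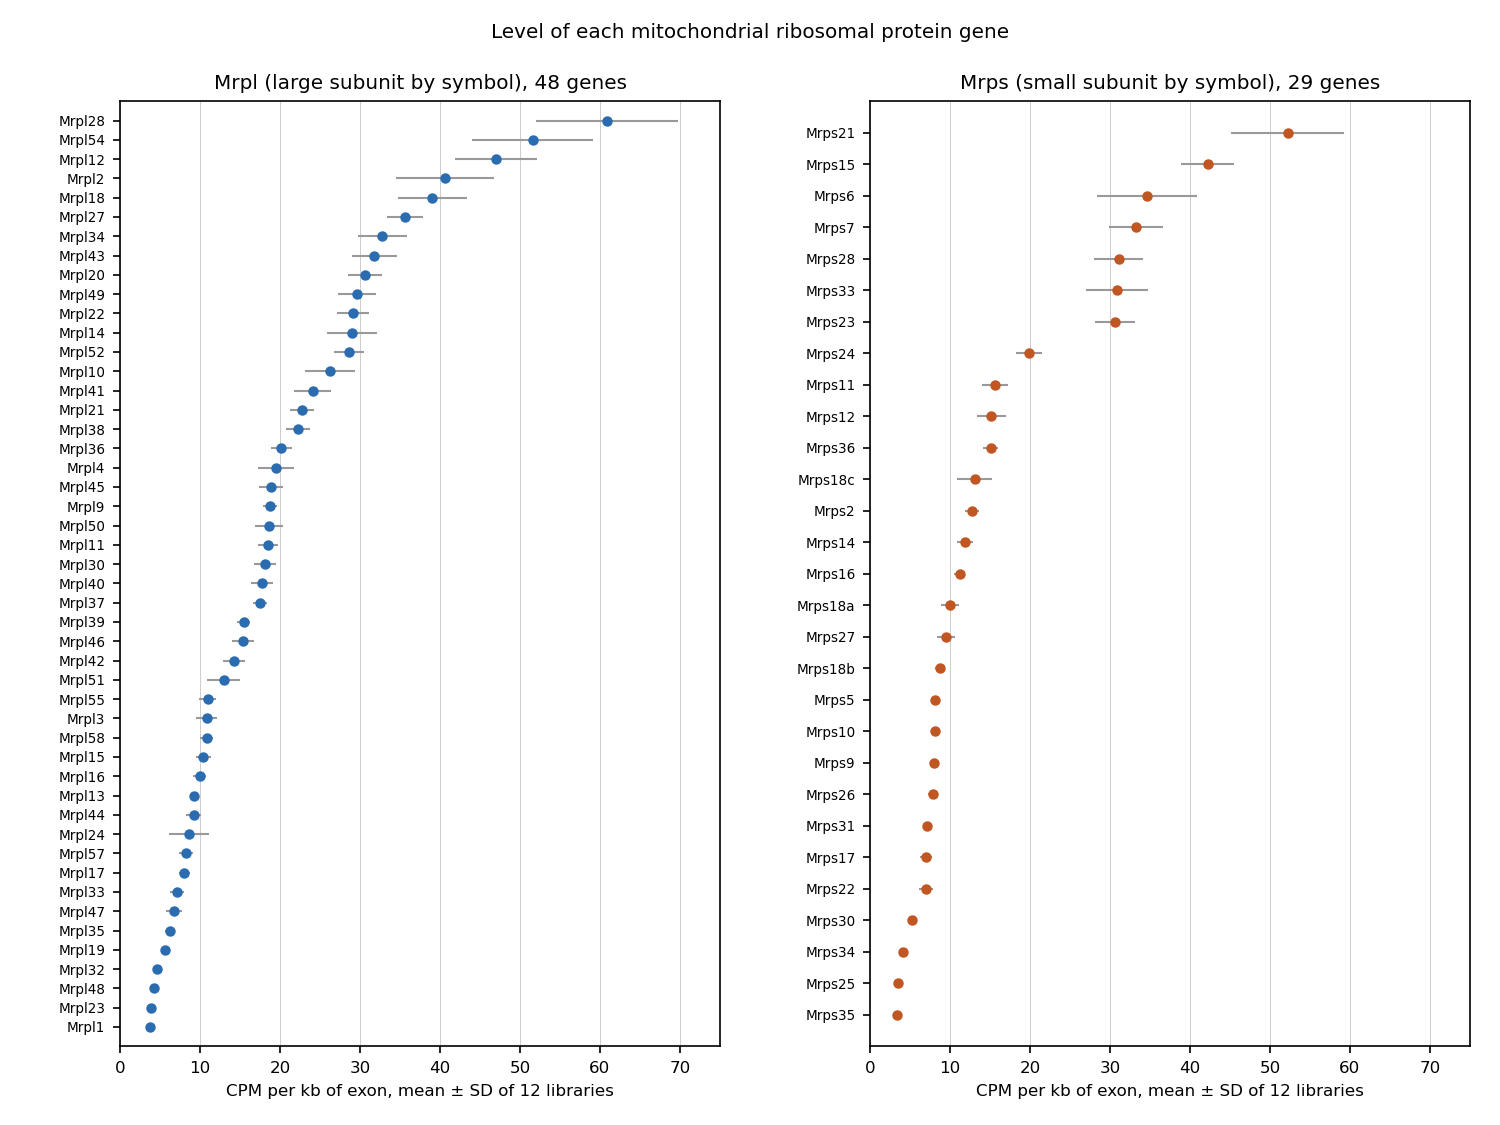
Level of each of the 77 mitochondrial ribosomal protein genes in CPM per kb of exon, with the large subunit on the left and the small subunit on the right, as the mean (point) and SD (bar) of 12 libraries. The means run from 3.76 (Mrpl1) to 60.9 (Mrpl28) in the large and from 3.41 (Mrps35) to 52.2 (Mrps21) in the small subunit, with bars that are short beside these spans.

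Genes for the functional centres differed widely in level. Mrps12, which lines the decoding site where tetracyclines bind nearby, had 15.8 CPM ± 1.91 (SD, n = 12) with a range of 13.9 to 21.1. Mrps5, another protein near the decoding site and the mRNA path, was among the steadiest at 53.7 CPM ± 2.42 (SD, n = 12). The paralogs Mrps18a, Mrps18b and Mrps18c each descend from the same bacterial protein. Their means were 37.0, 18.2 and 14.1 CPM, and per kb the order was Mrps18c (13.1), Mrps18a (10.03) and Mrps18b (8.74). In the ribosome structure Mrps18a and Mrps30 belong to the large subunit, and Mrps36 is known as a part of the 2-oxoglutarate dehydrogenase complex. Mrps30 had 35.2 CPM and Mrps36 19.2 CPM. On the large subunit, Mrpl12 and Mrpl10, which form the stalk that recruits translation factors, had 72.0 and 44.8 CPM. Mrpl27 at the peptidyl transferase centre, Mrpl45 at the exit tunnel next to the inner membrane, and the rescue factor Mrpl58 had 35.1, 49.0 and 36.1 CPM. Per kb, Mrpl12 (47.0 CPM) and Mrpl27 (35.6 CPM) lay near the top of the 77. Mrps5 (8.16 CPM) and Mrps30 (5.27 CPM) lay in the lower part. The annotated exon bases were 1532 and 985 for the former genes and 6578 and 6666 for the latter.

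Summed over the 48 large subunit genes, the level was 2039 CPM ± 58.7 in untreated and 1990.3 ± 43.1 in treated NLS-N-VEGF libraries (SD, n = 3 each). For N-VEGF it was 2060.1 ± 127 untreated and 2066 ± 139.5 treated (SD, n = 3 each). The sums over the 29 small subunit genes were 1042 ± 45.6 and 1015 ± 7.36 CPM in NLS-N-VEGF cells, and 1064 ± 69.1 and 1055 ± 85.5 CPM in N-VEGF cells, in the same order. In each case the libraries with dox overlap those without. The ratio of the large to the small sum was 1.96 ± 0.0302 and 1.96 ± 0.0332 in NLS-N-VEGF cells and 1.94 ± 0.0452 and 1.96 ± 0.0305 in N-VEGF cells. These ratios differ with dox by less than the SD between libraries. In bulk RNA, fewer expressing cells and less RNA per cell cannot be told apart.

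**Figure D2:**
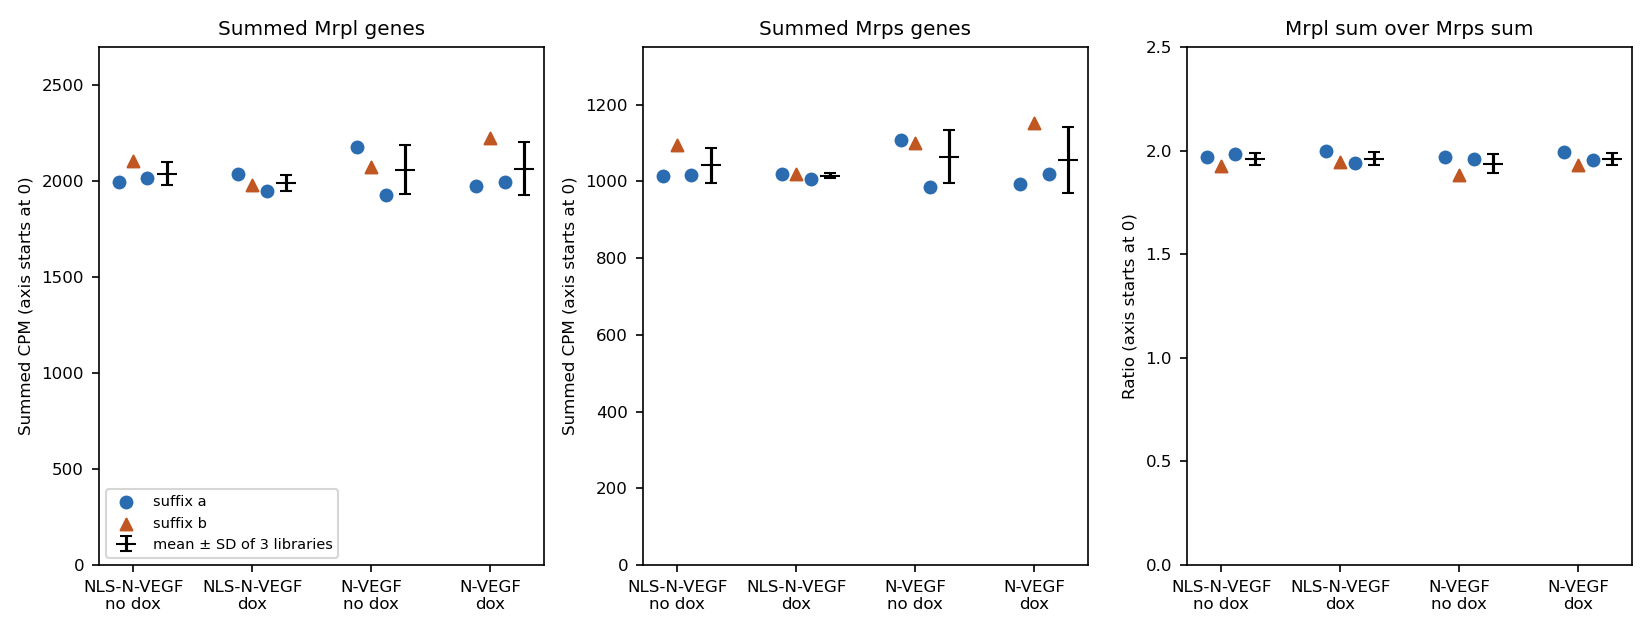
Summed CPM of the large subunit genes, of the small subunit genes and the ratio of these sums, with a point for each library (circles for suffix a, triangles for suffix b) and the group mean and SD beside them. Group means lie between 1990.3 and 2066 CPM for the large and between 1015 and 1064 CPM for the small subunit, and treated and untreated libraries overlap in both populations.

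In NLS-N-VEGF cells no mitochondrial ribosomal protein gene passed an adjusted p of 0.05 with dox in edgeR's quasi-likelihood test. Over all 13608 genes tested, 3 passed (0.0220%). DESeq2 also called 0 of the 77 and 11 genes in all (0.0808%), and edgeR with the replicate label as a block called 0 and 17 (0.125%). At an unadjusted p under 0.05, edgeR gave 1 of the 77, DESeq2 0, and the block 3, against 2.34% of all genes in edgeR and 7.27% with the block. The estimates were small. With dox 24 genes were higher and 53 lower. Their median log2 fold change was -0.04, against 0.00 over all genes tested, of which 6814 were higher and 6794 lower. The large subunit had 17 higher and 31 lower with a median of -0.05, and the small subunit 7 and 22 with a median of -0.03. With Mrps18a and Mrps30 counted as large and Mrps36 left out, the medians were also -0.05 and -0.03. Every 95% interval of the 77 lay within a 2-fold change in either direction, and 74 of them lay within 0.5 on the log2 scale.

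The lean to lower values was uneven between libraries. Among same-labelled pairs the median log2 ratio of dox to no dox was 0.02 for libraries 1 of suffix a, -0.05 for libraries 2 of suffix a and -0.09 for those of suffix b. Only 12 of the 77 genes were higher with dox in the last pair, and 44 were in the first. Libraries with and without dox did not overlap for 1 gene that was higher (4.83% of all genes did so) and for 7 genes that were lower (4.40%), all of the 7 in the large subunit. Chosen after these values were seen, the 7 are Mrpl9, Mrpl19, Mrpl21, Mrpl27, Mrpl34, Mrpl45 and Mrpl58.

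Mrpl34, a protein buried in the ribosomal RNA, had 20.4, 19.5 and 21.8 CPM in the untreated NLS-N-VEGF libraries, against 17.2, 17.9 and 18.0 CPM in the treated ones. All its treated libraries lay below all untreated ones, and its log2 fold change was -0.22 ± 0.099 (SE). It was the gene of the 77 with an unadjusted p under 0.05 in edgeR, and its adjusted p there was 0.9998. Mrpl45, the exit-tunnel protein that ties the ribosome to the inner membrane, had 49.4, 53.5 and 51.8 CPM untreated and 46.4, 46.3 and 42.5 CPM treated. Its groups did not overlap either, with a log2 fold change of -0.19 ± 0.092 (SE), an adjusted p of 0.9998 in edgeR and the smallest adjusted p of the 77 with the block (0.598). Mrpl27, at the peptidyl transferase centre, had 37.0, 35.8 and 38.5 CPM against 35.2, 31.6 and 33.1 CPM after treatment (log2 fold change -0.15 ± 0.084, SE). The lowest estimate was that of Mrpl24, a protein at the rim of the exit tunnel, with 17.3, 18.3 and 28.3 CPM untreated and 14.6, 15.0 and 24.0 CPM treated. Its groups overlap, since the library of suffix b was high in both, and the log2 fold change was -0.25 ± 0.32 (SE), or -0.25 ± 0.11 with the block.

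The 3 highest estimates in NLS-N-VEGF cells were those of Mrpl16, Mrps34 and Mrps18c. Mrpl16, which helps form the site that receives the transfer RNA, had 27.0, 29.2 and 33.3 CPM untreated and 31.9, 34.6 and 31.6 CPM treated. Its groups overlap, and the log2 fold change was 0.13 ± 0.11 (SE). Mrps34, a small subunit protein without a bacterial counterpart, lay between 8.05 and 8.50 CPM untreated and between 8.30 and 9.24 CPM treated. Other genes cover 77.8% of its exon bases, among them Mapk8ip3 on the opposite strand at 103 CPM, so its count is uncertain. Mrps18c had 11.96, 11.6 and 17.6 CPM untreated and 14.5, 13.5 and 15.9 CPM treated, and its log2 fold change of 0.10 ± 0.20 (SE) is smaller than its error.

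In N-VEGF cells, too, no mitochondrial ribosomal protein gene passed the threshold with dox, by edgeR (5 of all genes, 0.0367%), by DESeq2 (8 genes, 0.0588%) or with the block (15 genes, 0.110%). At an unadjusted p under 0.05, edgeR and DESeq2 gave 0 of the 77 and the block 3, against 1.48% of all genes in edgeR and 5.40% with the block. The 77 were evenly divided, 39 higher and 38 lower, with a median log2 fold change of 0.00. The large subunit had 26 higher and 22 lower (median 0.01), and the small subunit 13 higher and 16 lower (median -0.01). Every 95% interval lay within a 2-fold change, and 71 lay within 0.5 on the log2 scale.

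This even division rests on pairs that point different ways. The median log2 ratio of dox to no dox was -0.13 for libraries 1 of suffix a, 0.06 for libraries 2 of suffix a and 0.10 for those of suffix b. The first pair holds the N-VEGF library without dox that stood apart. Without that library 59 genes were higher and 18 lower, with a median of 0.04. Without the N-VEGF library with dox of suffix b, 27 were higher and 50 lower, with a median of -0.05. No gene of the 77 was called in either case. Libraries did not overlap for 1 gene that was higher (1.94% of all genes) and 2 that were lower (1.74%).

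The lowest estimates in N-VEGF cells were those of Mrps6, Mrps18b and Mrpl54. Mrps6, at the platform of the small subunit, had 62.0, 45.2 and 70.5 CPM untreated and 41.4, 47.8 and 63.9 CPM treated, which overlap, and its log2 fold change was -0.22 ± 0.19 (SE). Mrps18b had 19.4, 19.5 and 18.5 CPM untreated and 16.7, 17.8 and 16.2 CPM treated. Its groups did not overlap, with a log2 fold change of -0.18 ± 0.092 (SE) and an adjusted p of 0.9999 in edgeR. Mrpl54, of the large subunit, had 60.9 CPM in the library that stood apart and 36.4 to 44.2 CPM in the 11 others. Its log2 fold change was -0.16 ± 0.14 (SE), and 0.06 without that library.

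Mrpl47, Mrpl41 and Mrpl33 had the highest estimates in N-VEGF cells. Mrpl47, next to the exit tunnel, had 18.7, 27.7 and 31.5 CPM untreated and 31.0, 32.1 and 31.7 CPM treated. Its groups overlap, and the difference came mostly from the low value of the library that stood apart. The log2 fold change was 0.28 ± 0.16 (SE), with values from 0.09 to 0.42 when each of the 12 libraries was left out in turn. Mrpl41 had 17.7, 19.3 and 20.6 CPM against 21.4, 20.4 and 25.4 CPM after treatment (log2 fold change 0.22 ± 0.11, SE), and the smallest adjusted p with the block was its own (0.888). Mrpl33 had 34.4 CPM in the library that stood apart and 50.4 to 59.3 CPM in the others (0.19 ± 0.15, SE, and from 0.00 to 0.28 with a library left out). With the block, the unadjusted p was under 0.05 for Mrpl47, Mrpl41 and Mrps6. Of the exon bases of Mrpl47, 24.2% lie opposite Actl6a and Ndufb5, at 101 and 79 CPM.

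The genes for the decoding site, where tetracyclines bind, were not called in either population. For Mrps12 the untreated NLS-N-VEGF libraries had 14.1, 15.3 and 16.5 CPM and the treated ones 16.2, 14.9 and 15.3 CPM. The untreated N-VEGF libraries had 21.1, 14.7 and 15.2 CPM and the treated ones 13.9, 14.8 and 17.1 CPM. The groups overlap in both, with log2 fold changes of 0.01 ± 0.14 and -0.15 ± 0.14 (SE), the second among the 4 lowest of the 77 and with the high value of the library that stood apart. Mrps5 gave -0.03 ± 0.079 and -0.04 ± 0.079. The stalk proteins gave -0.06 and -0.07 (Mrpl10) and 0.02 and -0.12 (Mrpl12), and the rescue factor Mrpl58, which frees ribosomes stalled on an mRNA, gave -0.07 in both. Mrps18a gave 0.04 and -0.03, Mrps30 gave -0.06 and -0.05, and Mrps36 gave -0.00 and 0.08 in NLS-N-VEGF and N-VEGF cells. Outside the rule for naming, and chosen after its values were seen, Mrps10 was the gene whose libraries with dox lay above those without in both populations. It had 63.3, 62.6 and 65.2 against 69.6, 67.9 and 65.8 CPM in NLS-N-VEGF cells, and 62.1, 65.1 and 63.3 against 66.2, 68.0 and 70.5 CPM in N-VEGF cells. Its log2 fold changes were 0.09 ± 0.069 and 0.10 ± 0.069 (SE), with adjusted p of 0.9998 and 0.9999 in edgeR. Of all genes, 4.83% lay higher with dox without overlap in NLS-N-VEGF cells and 1.94% in N-VEGF cells. The share that did so in both populations was not taken.

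**Figure D3:**
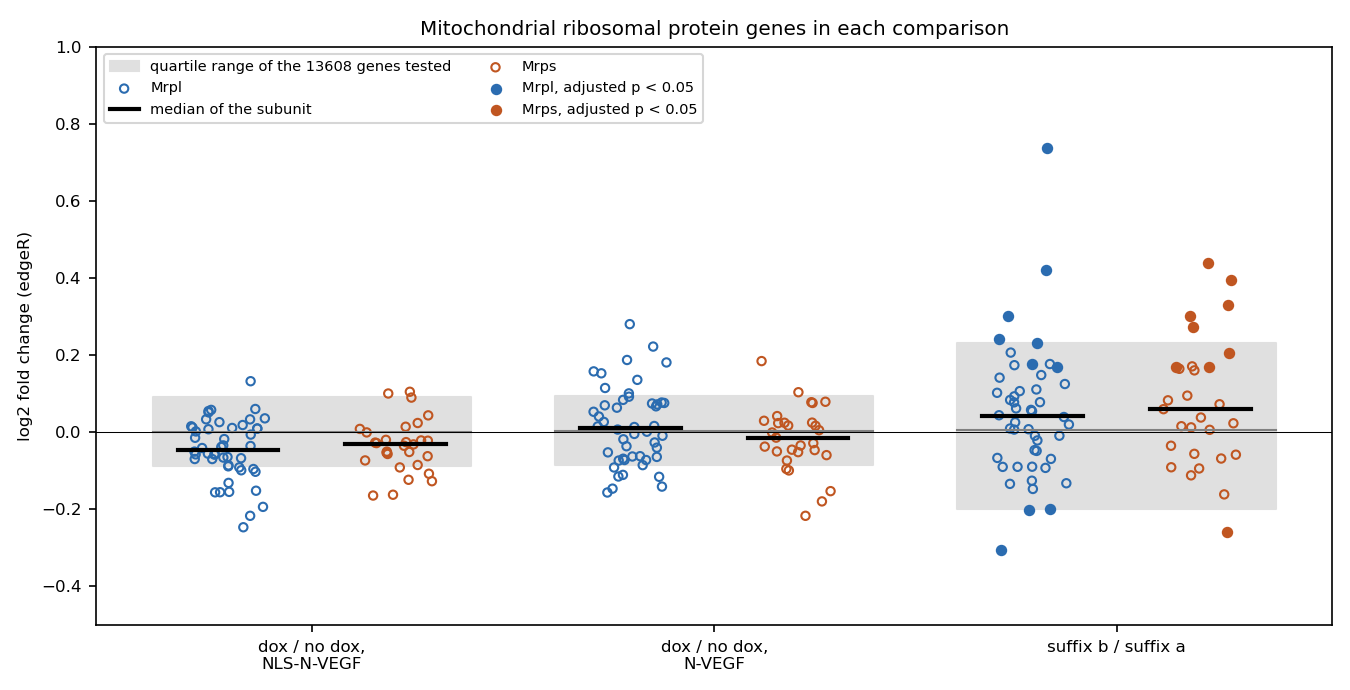
Log2 fold change of each of the 77 genes with dox in either population and between the label suffixes, with open points for genes that did not pass the threshold, filled points for those that did, a black line at the median of a subunit, and the quartile range of all 13608 genes tested in grey. No point is filled with dox, and 19 are filled for the suffix, with Mrpl24 highest at 0.74.

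The dox effects in the 2 populations did not differ detectably for any of the 77 genes. No gene at all had an adjusted p under 0.05 for the difference (0% by edgeR, by DESeq2 and with the block). At an unadjusted p under 0.05, 0 of the 77 passed in edgeR and in DESeq2 and 3 with the block, against 0.852% of all genes in edgeR and 3.41% with the block. For the effect in NLS-N-VEGF cells minus that in N-VEGF cells, 31 were above 0 and 46 below, with a median of -0.04 (large -0.05, small -0.01). The lowest were Mrpl24 (-0.40 ± 0.45, SE), Mrpl47 (-0.38 ± 0.23) and Mrpl46 (-0.31 ± 0.15). Mrpl46, near the top of the large subunit, had 24.2, 23.8 and 21.8 CPM untreated against 22.7, 21.6 and 18.4 CPM treated in the NLS-N-VEGF population. In the N-VEGF population it had 21.3, 21.4 and 18.1 CPM against 23.4, 21.3 and 23.1 CPM. The highest were Mrpl16 (0.18 ± 0.16), Mrps12 (0.17 ± 0.20) and Mrpl57 (0.16 ± 0.16), and that of Mrps12 fell to -0.02 without the N-VEGF library that stood apart. Intervals were wider here, and 76 of 77 lay within 1 on the log2 scale, the exception being Mrpl24. The 3 genes with an unadjusted p under 0.05 in the blocked fit were Mrpl24, Mrpl27 and Mrpl46.

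**Figure D4:**
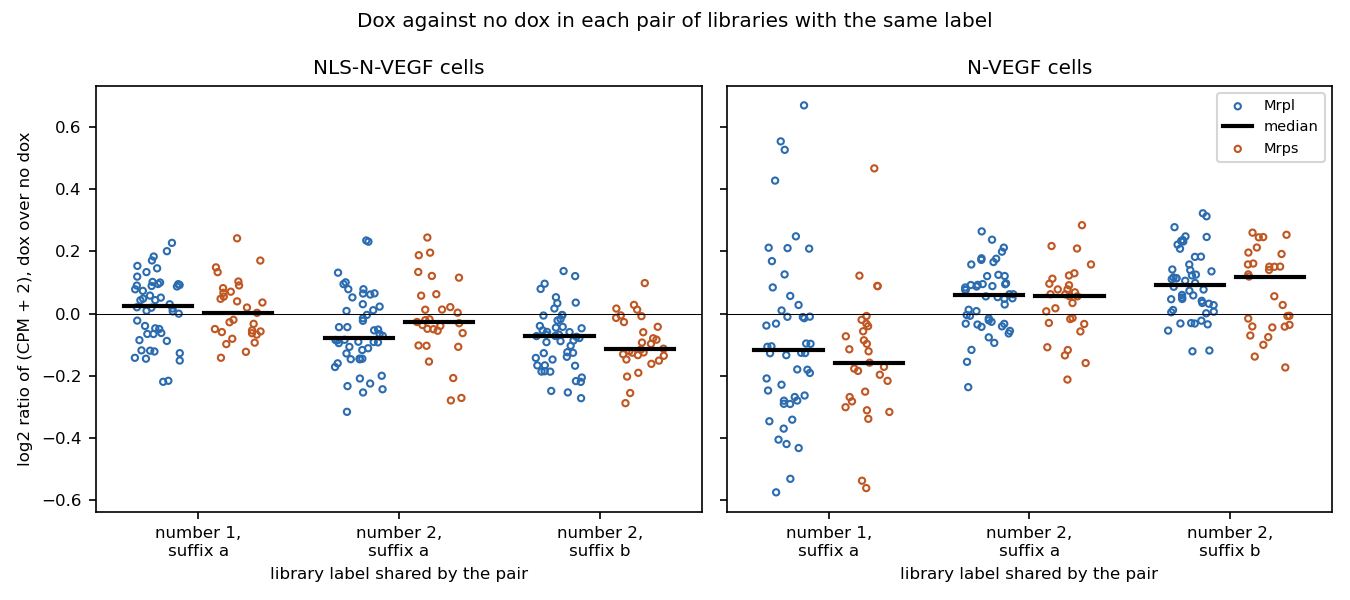
Log2 ratio of CPM (with a pseudocount of 2) with dox to that without in each same-labelled pair of libraries, with a point for each large or small subunit gene and a black line at the median of the subunit. Medians over both subunits together ran from -0.09 to 0.02 in the 3 pairs of NLS-N-VEGF cells and from -0.13 to 0.10 in those of N-VEGF cells.

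Against this, the label suffix went with differences in 19 of the 77 genes. With the group held constant, 15 were higher (22.2% of all genes tested were called higher) and 4 lower (23.5%) in the 4 libraries of suffix b than in the 8 of suffix a, at an adjusted p under 0.05 in edgeR. The share of the 77 called in either direction was 24.7%, against 45.6% of all genes. The large subunit had 7 higher and 3 lower of 48, and the small subunit 8 higher and 1 lower of 29. Median log2 fold changes were 0.04 for the large and 0.06 for the small subunit, against 0.01 over all genes tested. What the suffix stands for was not stated, and libraries 1 were present under suffix a only. Libraries of the 2 suffixes did not overlap for 8 genes that were higher (13.1% of all genes) and 0 that were lower (16.6%).

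The ratio of the large to the small sum was 1.97 ± 0.0204 (SD, n = 8) under suffix a and 1.92 ± 0.0262 (SD, n = 4) under suffix b. The highest of the 4 (1.945) lay above the lowest of the 8 (1.940), so the suffixes overlap. Group by group, the median log2 ratio of suffix b to suffix a over the 77 genes was 0.06 in untreated and -0.01 in treated NLS-N-VEGF cells, and -0.00 in untreated and 0.15 in treated N-VEGF cells. In the last group 62 of the 77 genes were higher.

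The largest difference was that of Mrpl24 (chromosome 3, 87919506 to 87923672, plus strand), the exit-tunnel protein. Under suffix b it had 28.3, 24.0, 26.6 and 26.7 CPM, and under suffix a it ran from 11.1 to 18.3 with a median of 16.9 CPM. The ranges do not overlap, and the log2 fold change was 0.74 ± 0.087 (SE; adjusted p = 6.83e-06 in edgeR). Of its exon bases 26.3% lie opposite Rrnad1, a gene at 16.8 CPM that differed by 0.30 (adjusted p = 0.0164 in edgeR). The library kit did not mark strand, so reads of these overlapping genes cannot be told apart.

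Mrpl51 (chromosome 6, 125191801 to 125196269, plus strand), a large subunit protein without a bacterial counterpart, had 60.7, 58.4, 65.7 and 67.6 CPM under suffix b. Under suffix a it ran from 45.2 to 50.9 with a median of 46.5 CPM. Its suffixes are fully separate, with a log2 fold change of 0.42 ± 0.056 (SE; adjusted p = 2.08e-05 in edgeR). Mrpl3 (chromosome 9, 105053239 to 105079888, plus strand), a core protein close to the peptidyl transferase centre that lies outside the rule for naming and was chosen after its values were seen, had 83.2, 77.3, 83.2 and 86.8 CPM against 60.6 to 75.9 with a median of 67.2 CPM. It did not overlap either, and its log2 fold change was 0.30 ± 0.061 (SE; adjusted p = 0.000867 in edgeR). Both hold the ETS core printed above, 90 and 19 bases before their RefSeq starts, which lie inside the GENCODE spans, so that the cores are 309 and 10 bases past the outermost starts.

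On the small subunit, Mrps18c (chromosome 5, 100798627 to 100804471, plus strand) had 17.6, 15.9, 17.9 and 16.9 CPM under suffix b and 11.6 to 14.5 with a median of 12.3 CPM under suffix a. The suffixes do not overlap, with a log2 fold change of 0.44 ± 0.076 (SE; adjusted p = 0.000224 in edgeR). Gm43511 on the same strand, at 0.50 CPM, shares 23.2% of its exon bases and gave 0.64 (adjusted p = 0.190 in edgeR). With offsets for exon length and GC content the estimate for Mrps18c fell to 0.18 (adjusted p = 0.0464 in edgeR). Its paralogs gave other values, 0.16 ± 0.078 for Mrps18a (adjusted p = 0.104 in edgeR) and -0.09 ± 0.063 for Mrps18b (adjusted p = 0.238 in edgeR). Of the exon bases of Mrps18b, 30.5% lie opposite Gm16279, which had 1.5 CPM and gave 0.85 (adjusted p = 0.00235 in edgeR). Mrps6 (chromosome 16, 92058270 to 92112227, plus strand) had 63.5, 54.9, 70.5 and 63.9 CPM against 41.4 to 62.0 with a median of 46.8 CPM. Its ranges overlap through the N-VEGF library that stood apart, and the log2 fold change was 0.39 ± 0.073 (SE; adjusted p = 0.000419 in edgeR), or 0.25 with the offsets. Its same-strand neighbour Slc5a3, which shares 19.9% of the exon bases of Mrps6, gave -0.03.

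Mrps21 (chromosome 3, 95862634 to 95871519, minus strand), whose bacterial relative takes part in starting translation, had 43.1, 41.7, 44.6 and 49.4 CPM against 32.3 to 40.3 with a median of 35.3 CPM. Mrps33 (chromosome 6, 39801804 to 39810988, minus strand) had 59.3, 54.2, 63.1 and 58.7 CPM against 42.7 to 55.3 with a median of 47.0 CPM. The suffixes were separate for Mrps21 and overlapped for Mrps33. Their log2 fold changes were 0.33 ± 0.064 and 0.30 ± 0.066 (SE), with adjusted p of 0.000574 and 0.00138 in edgeR. Both have short transcripts, and short transcripts as a whole were higher under suffix b. The median log2 fold change over all genes went from 0.10 in the quartile of shortest exon length (up to 2600 bases) to -0.09 in the longest, and 41 of the 77 genes lie in the shortest quartile. These 41 had a median of 0.04, and those of the 77 in the longer quartiles had 0.09, -0.01 and 0.06, without a steady fall. With offsets for exon length and GC content, Mrps21 gave 0.13 (adjusted p = 0.102 in edgeR) and Mrps33 0.07 (adjusted p = 0.247 in edgeR), no longer past the threshold.

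Of the 4 genes that were lower, Mrpl2 (chromosome 17, 46646229 to 46650139, plus strand), a core protein of the peptidyl transferase centre, fell most. It had 40.6, 40.4, 39.7 and 43.3 CPM under suffix b and 40.0 to 64.0 with a median of 49.99 CPM under suffix a. The ranges overlap through NLS-N-VEGF library 2 with dox at 40.0 CPM, and the log2 fold change was -0.30 ± 0.082 (SE; adjusted p = 0.00643 in edgeR). Mrps27 (chromosome 13, 99344786 to 99415562, plus strand), which has RNA-binding repeats, had 19.1, 17.2, 16.6 and 17.3 CPM against 18.4 to 24.3 with a median of 20.7 CPM. It gave -0.26 ± 0.074 (SE; adjusted p = 0.00893 in edgeR), and the call was lost without N-VEGF library 2 of suffix b without dox (edgeR's adjusted p = 0.0572). Of the exon bases of Mrps27, 24.2% lie opposite 6430562O15Rik, at 0.49 CPM.

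The stalk base protein Mrpl10 (chromosome 11, 97041560 to 97049213, plus strand) had 40.6, 41.7, 39.0 and 41.5 CPM against 41.3 to 58.8 with a median of 45.5 CPM. Mrpl23 (chromosome 7, 142532686 to 142540747, plus strand), at the exit of the tunnel, had 17.8, 17.1, 16.8 and 16.3 CPM against 17.1 to 21.6 with a median of 19.6 CPM. These ranges overlap slightly. Both gave -0.20 (SE 0.077 and 0.069), with adjusted p of 0.0438 and 0.0273 in edgeR and of 0.0519 and 0.0595 in DESeq2. The call was lost for Mrpl10 in 7 and for Mrpl23 in 4 of the 12 fits with a library left out. Mrps30, a large subunit protein despite its symbol, gave 0.17 ± 0.057 (SE; adjusted p = 0.0228 in edgeR), lost in 6 of those 12.

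Calls for the suffix shifted with the offsets for exon length and GC content. With the offsets 7 of the 77 were higher (21.1% of all genes) and 19 lower (27.8%), and the medians were -0.07 for the large and 0.00 for the small subunit. Of the 15 higher genes 6 kept their call, and of the 4 lower genes all 4 did. These 6 were Mrpl24, Mrps18c, Mrpl51, Mrps6, Mrpl3 and Mrps17, and they and Mrpl2 were called in the same direction in all 19 fits of the suffix. Mrps17, outside the rule for naming and chosen after its values were seen, is a small subunit protein of bacterial origin. It had 49.3, 48.4, 54.6 and 54.2 CPM against 40.5 to 43.6 with a median of 42.9 CPM, with no overlap. By direction within groups, 14 of the 15 higher genes and all 4 lower genes had the same sign in each of the 4 groups. They were called in these same libraries, so this agreement follows largely from the call and is no separate support. Over the 77 genes, called or not, 20 were higher and 10 lower in all 4 groups, against 3053 and 3529 of 12058 genes.

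**Figure D5:**
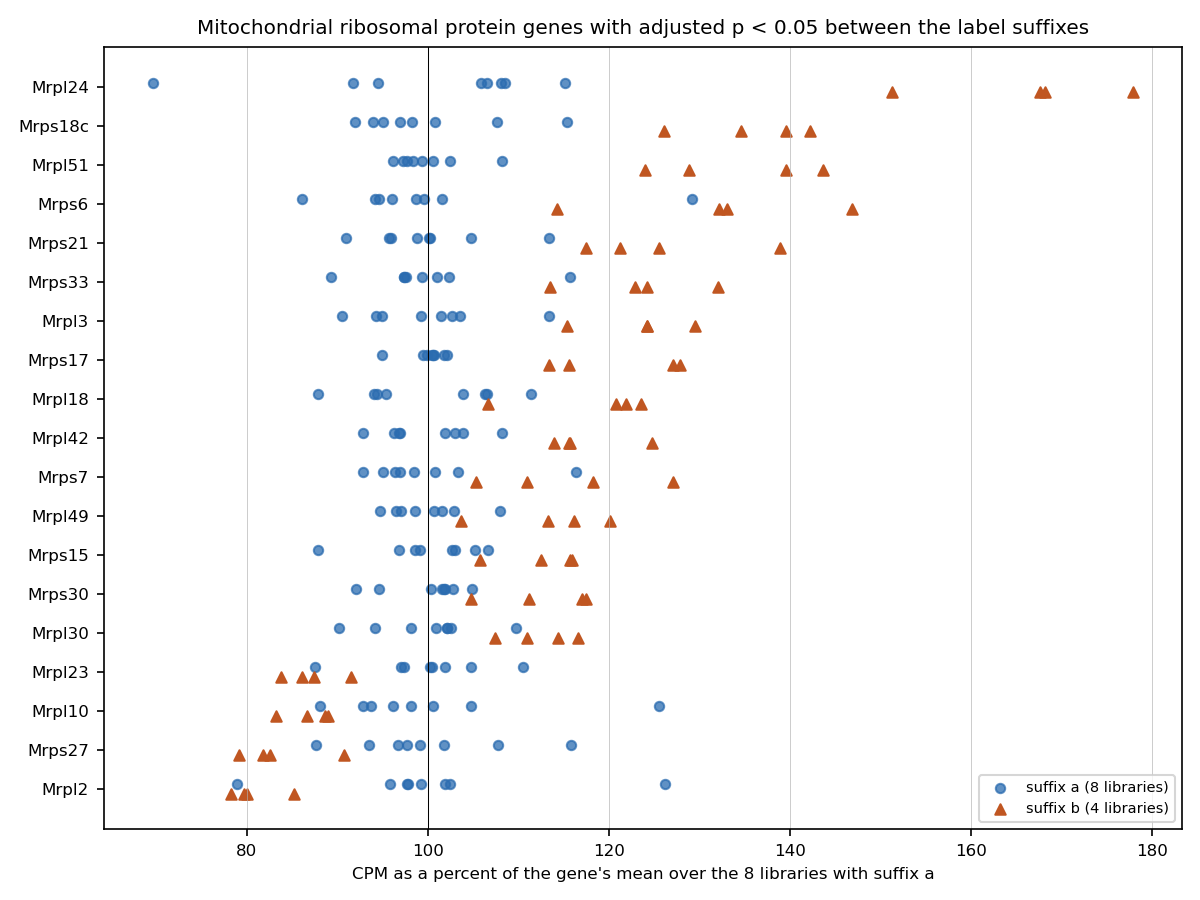
CPM in each library of the 19 genes called for the label suffix, as a percent of the gene's mean over the 8 libraries of suffix a, with circles for suffix a and triangles for suffix b. All 4 triangles lie to the right of all 8 circles for Mrpl24, Mrpl51, Mrpl3, Mrpl42, Mrps18c, Mrps21 and Mrps17. For Mrpl2, Mrps27, Mrpl10 and Mrpl23 the triangles lie to the left and overlap the circles.

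Genes that work with the mitochondrial ribosome likewise had no call with dox in either population, by edgeR, by DESeq2 or with the block. Of 13 translation factors, 5 were higher and 8 lower in NLS-N-VEGF cells (median log2 fold change -0.05) and 6 and 7 in N-VEGF cells (median -0.00). Of 24 genes for ribosome assembly and rRNA modification, 9 were higher and 15 lower in NLS-N-VEGF cells (median -0.01) and 11 and 13 in N-VEGF cells (median -0.02). For 11 regulators of nuclear genes for mitochondria the counts were 4 and 7 in both populations, with medians of -0.02 and -0.04. The 5 ribosomal proteins with other symbols (Dap3, Ptcd3, Chchd1, Aurkaip1 and Gadd45gip1) had medians of -0.06 and -0.02. Among 79 genes for cytosolic ribosomal proteins, 3 were higher and 76 lower in NLS-N-VEGF cells (median -0.07), and 24 and 55 in N-VEGF cells (median -0.04). The direction in N-VEGF cells rests on the library that stood apart, since without it 75 were higher and 4 lower with a median of 0.05. In NLS-N-VEGF cells the pair of libraries 1 was even, with 39 higher and 40 lower. At an unadjusted p under 0.05, edgeR gave 0 genes of these lists and DESeq2 gave 1, a cytosolic ribosomal protein gene in NLS-N-VEGF cells.

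The mRNAs that the mitochondrial ribosome translates leaned to higher values with dox. Of the 13 protein-coding genes of the mitochondrial genome, 12 were higher with dox in each population, with median log2 fold changes of 0.20 in NLS-N-VEGF and 0.33 in N-VEGF cells. Pairs differed, with medians of 0.39, -0.00 and 0.22 in NLS-N-VEGF cells, where 6 of the 13 were higher in libraries 2 of suffix a, and of 0.53, 0.35 and 0.07 in N-VEGF cells. None passed the threshold in edgeR or DESeq2. At an unadjusted p under 0.05, 1 of the 13 did in each population in edgeR, against 2.34% and 1.48% of all genes. With the block 5 and 7 did, against 7.27% and 5.40% of all genes, and in DESeq2 2 and 4. Their summed level was 46268, 50321 and 44512 CPM in the untreated NLS-N-VEGF libraries and 57929, 49220 and 48102 CPM in the treated ones, which overlap. For N-VEGF it was 40274, 50721 and 50518 CPM untreated and 53055, 60889 and 53024 CPM treated, with every treated library above the untreated ones. Without the N-VEGF library that stood apart, all 13 were higher with a median of 0.18, and none of them reached an unadjusted p under 0.05 in edgeR.

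Between the suffixes, 22.2% of all 13608 genes tested were called higher and 23.5% lower, and the calls in the lists below stand beside these shares. Called higher were 3 translation factors and lower 2, led by Mtrf1l (0.35) and Mtfmt (0.27), and Taco1 (-0.53) and Mtif3 (-0.48). Among assembly genes 2 were higher and 4 lower, with Mettl17 at 0.50 and Mtg2 at 0.18, and Ddx28 at -0.45 and Mrm2 at -0.41. Among regulators 2 were higher (Nrf1 at 0.19 and Pprc1 at 0.13) and 4 lower, with Ppargc1b, a coactivator, at -0.64 and Myc at -0.33. Ppargc1a had the highest estimate of that list (0.24) without passing the threshold. Of the other ribosomal proteins Ptcd3 (0.26) and Chchd1 (0.20) were higher. For the mitochondrial genome's mRNAs, 1 was higher (mt-Cytb, 0.29) and 3 were lower, with mt-Nd5 at -0.84 and mt-Nd4l at -0.51, while mt-Co2 gave 0.21. Counts of both mitochondrial rRNAs were lower, mt-Rnr2 at -0.89 and mt-Rnr1 at -0.63 on the log2 scale. The 2 rRNAs averaged 733 and 230 CPM, against 12494 CPM for the mRNA mt-Co1. Whether these counts follow the amount of rRNA in the cells was not tested. Untreated N-VEGF cells did not share the lower rRNA counts clearly. There mt-Rnr1 had 260 CPM under suffix b against 230 and 272 under suffix a, and mt-Rnr2 had 625 against 467 and 896. The cytosolic ribosomal protein genes had 6 higher and 26 lower, with a median of -0.13, while the 77 mitochondrial ribosomal protein genes had 15 higher and 4 lower with a median of 0.04. With the offsets for exon length and GC content this balance turned for the 77 genes, to 7 higher and 19 lower with a median of -0.05. The cytosolic genes then had 2 higher and 58 lower with a median of -0.24. Of all genes tested, 21.1% were called higher and 27.8% lower with the offsets.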

How the data were processed

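The authors prepared TruSeq RNA v2 libraries and sequenced single reads, which were trimmed by Trim Galore, mapped to mouse build GRCm38 by TopHat2 2.1.0 with Bowtie2 2.2.6, and assigned to genes by HTSeq 0.6.1. The tool versions are from the submitters' processing notes, and the strand option of the counting is not given in the sources used here. What was deposited is the raw count of every gene, not normalized, and libraries total 13549331 to 18982127 counts. Reads carried no molecular identifiers, so floors (3 counts) cover counting error only.

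Groups were taken from the labels. Counts of all 12 libraries were fitted with edgeR 4.0.16 in R 4.3.3 (filterByExpr by group, 13608 genes kept, TMM scaling, 1 mean per group, two-sided quasi-likelihood F test). Benjamini-Hochberg adjustment ran over all genes of a contrast, with calls at an adjusted p under 0.05. The suffix was tested in a fit with group and suffix as terms. CPM used the TMM-scaled library size, log2 ratios of pairs of libraries used a pseudocount of 2 CPM, and standard errors (SE) are those of log2 fold changes. Exon lengths, overlaps and GC content came from the GENCODE annotation of the same build, and the code was tested on simulated data.

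The pairing of libraries by number and suffix comes from the labels. It was checked by the correlation of deviations from the group means, which was over 0.1 in all 18 same-labelled pairs of libraries (0.400 to 0.830, mean 0.590). It was also over 0.1 in all 12 pairs of the same suffix but another number (0.144 to 0.678, mean 0.471), so it bears on the suffix more than on the number. Alternatives were this replicate block, DESeq2 1.42.0, RLE scaling, other filters on low counts, offsets for exon length and GC content, the suffix as covariate, parts of the libraries and leaving out each library.

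Genes named by rule were 12 with known roles (Mrps12, Mrps5, Mrps18a, Mrps18b, Mrps18c, Mrps30, Mrps36, Mrpl10, Mrpl12, Mrpl27, Mrpl45 and Mrpl58), the 3 highest and 3 lowest estimates of each dox contrast, the 6 highest and 6 lowest calls for the suffix, and the extremes per kb. In other lists the 2 highest and 2 lowest suffix estimates were named. The members, lists and rule were chosen with earlier results of these data known.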

Additional observations from a re-analysis of the deposited data

Results flagged for a closer look

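In every pair of libraries, 3 genes went in opposite directions in the 2 populations. Mrpl21, Mrpl24 and Mrpl47 were lower with dox in all 3 same-labelled pairs of NLS-N-VEGF cells and higher in all 3 pairs of N-VEGF cells. That is 3.9% of the 77 genes, and over the 12058 genes that averaged 1 CPM or more 1.14% went this way and 2.07% went in opposite directions either way. The dox log2 fold change in NLS-N-VEGF cells minus that in N-VEGF cells was -0.21 for Mrpl21, -0.40 for Mrpl24 and -0.38 for Mrpl47. The interaction was tested with edgeR, which gave an adjusted p of 0.9999 for each of the 3. Mrpl21, a large subunit protein, had 46.4, 48.7 and 49.6 CPM untreated and 44.3, 43.8 and 44.0 CPM treated in the NLS-N-VEGF population. In the N-VEGF population it had 43.6, 40.7 and 48.4 CPM untreated and 43.9, 45.7 and 50.2 CPM treated. In N-VEGF cells Mrpl24 had 11.1, 16.8 and 26.6 CPM untreated and 17.2, 16.9 and 26.7 CPM treated, so that 2 of its 3 pairs were nearly equal, and Mrpl47 was nearly equal in 1 pair (31.5 and 31.7 CPM). With the replicate block the difference of Mrpl24 was -0.44, with an unadjusted p of 0.0146. The N-VEGF library 1 without dox held the lowest value of all 12 for Mrpl24 (11.1 CPM) and for Mrpl47 (18.7 CPM). Without it the differences were -0.14 for Mrpl24 and -0.20 for Mrpl47.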

How the results depend on the processing

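No gene of the 77 was called with dox in either population, or for the difference between them, under any of the alternatives run. The replicate block changed no call. It lowered the smallest adjusted p to 0.598 in NLS-N-VEGF and 0.888 in N-VEGF cells and raised the unadjusted calls as given in the report. In all, 260 summary values stayed close to the reported ones and 12 moved, and of the values for named genes 517 kept direction and side of the threshold, 19 lost the call and 4 changed sign. With each library left out in turn, the dox log2 fold change in NLS-N-VEGF cells ran from -0.52 to 0.0031 for Mrpl24 (without NLS-N-VEGF library 2 of suffix b without dox) and from -0.0079 (without library 2 of suffix a) to 0.31 for Mrps18c. Without N-VEGF library 1 without dox, Mrpl54 in N-VEGF cells gave 0.059 (otherwise down to -0.29) and the difference of Mrps12 gave -0.016 (otherwise up to 0.26). For the suffix, 10 to 23 genes were higher and 1 to 5 lower, with 23 higher without N-VEGF library 1 without dox, 10 without N-VEGF library 2 of suffix b with dox, and 1 lower without N-VEGF library 2 of suffix b without dox. With offsets for exon length and GC content 7 were higher and 19 lower, and the median of the large subunit was -0.068. DESeq2 called 2 lower, and so did the libraries of number 2 alone. In N-VEGF cells with dox alone the medians were 0.15 (large) and 0.17 (small). With subunits by structure, the summed small subunit level was 952 CPM. Why these values moved was not tested. At this depth, the median SE of a dox log2 fold change of the 77 was 0.11.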
